A study of Homo sapiens with 12 samples.

Results

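CXCR7 was silenced in C4-2B-EnzR cells, and their RNA was compared with that of cells carrying the control vector. The 6 libraries, 3 labelled LKO and 3 labelled shCXCR7, were all those of this cell line among the 12 of the series, and 13342 of the 26439 genes in the deposited table reached 0.5 RPKM (reads scaled by a gene's length and its library's total) in at least 3 of them and were tested. C4-2B is a human castration-resistant prostate cancer line derived from LNCaP, and the EnzR line, named MDVr in the labels, is its enzalutamide-resistant derivative. The cells of all 6 libraries were kept in 10 µM enzalutamide, an antiandrogen drug, so the drug was shared by the control and the knockdown. Cells were infected with lentivirus carrying either the control construct pLKO or a short hairpin against CXCR7, and RNA was taken 4 days later. The study's general methods add that infected cells were selected with puromycin. They name 2 hairpins against CXCR7, and the one carried by these libraries is not stated. The other 6 libraries of the series held the same comparison in LNCaP-EnzR cells in 2 µM enzalutamide and were used only to test where the responses differed. The study's text speaks of duplicates for its RNA-Seq of this line, while the labels and the table hold 3 libraries in each group, and all were used. The sources used here do not say whether the 3 libraries of a group are separate cultures. The p values therefore measure spread between libraries, which may be technical.

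CXCR7 is an atypical chemokine receptor that binds CXCL12 and CXCL11. It does not couple to G proteins in the usual way and works mainly through beta-arrestins and by removing chemokine from the medium. In prostate cancer cells its transcription is repressed by androgen signalling. The libraries were made to ask which genes depend on CXCR7 in enzalutamide-resistant cells, and the study's later work concerned Aurora kinase A (AURKA), a kinase of the mitotic spindle.

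CXCR7 mRNA, listed under its current symbol ACKR3, was lower after knockdown, with all shCXCR7 libraries below all LKO libraries. The gene spans chr2:236567787-236582354 of GRCh38, is read from the + strand and has 2 exons in its canonical GENCODE transcript. Its level, in RPKM rescaled between the 6 libraries by median-of-ratios factors, was 83.3, 86.5 and 85.9 in the LKO and 22.2, 23.7 and 18.9 in the shCXCR7 libraries. The means were 85.2 ± 1.74 against 21.6 ± 2.43 (SD, n = 3 each), and the knockdown kept 25.4% of the control level. The log2 fold change was -1.97 (standard error 0.090, adjusted p = 1.29e-05 from limma). A 2-sided exact permutation test of the 6 values gave p = 0.1, the smallest that 3 libraries against 3 allow. Fold changes throughout are on the scale of log2(rescaled RPKM + 0.25), which understates changes of low genes, and genes are said to rise or fall when the adjusted p from limma was under 0.05. Levels below are in rescaled RPKM, and a single value in parentheses after a gene is its log2 fold change.

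**Figure D1:**
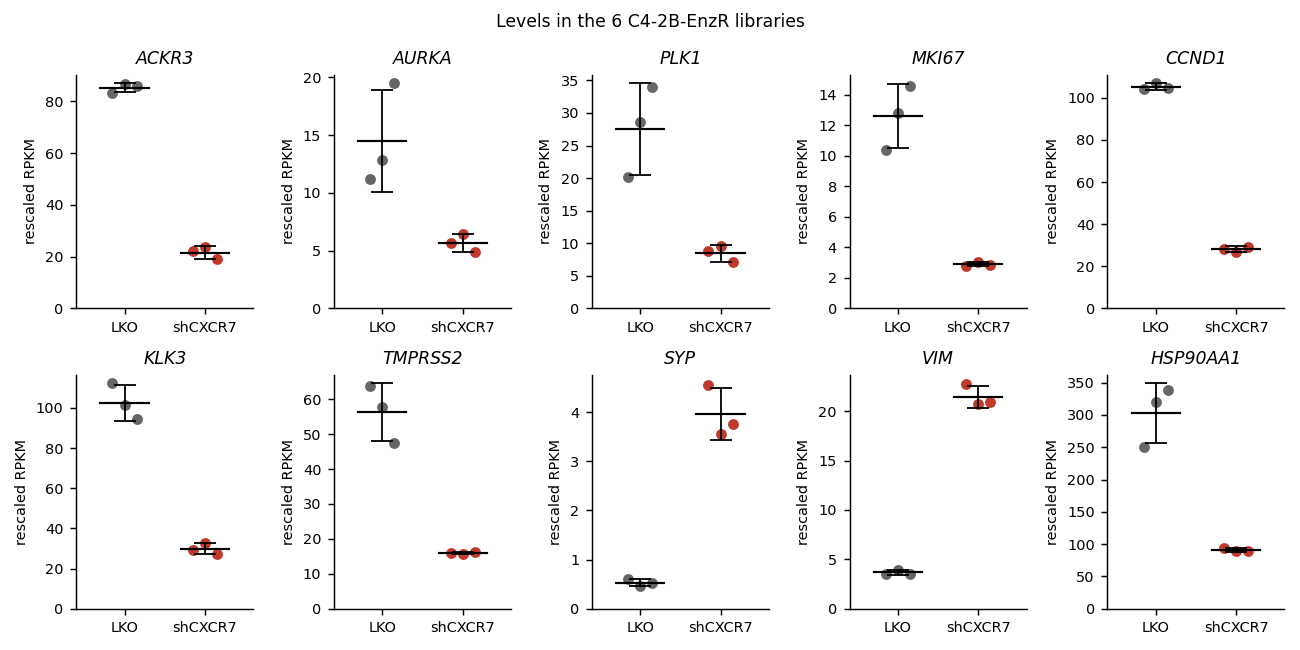
Rescaled RPKM (y axis, from 0) of 10 genes in the 3 LKO libraries (grey points) and the 3 shCXCR7 libraries (red points), with the mean and SD of each group as a line and bars. ACKR3, AURKA, PLK1, MKI67, CCND1, KLK3, TMPRSS2 and HSP90AA1 lay lower in every shCXCR7 library, and SYP and VIM higher.

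The 6 libraries held between 7.11 and 9.33 M reads in genes, recovered from the steps between low RPKM values, and their rescaling factors lay between 0.955 and 1.03. The first principal component carried 60.1% of the variance and separated the groups, and the second, with 13.2%, spread the LKO libraries from -25.7 to 22.4 and the shCXCR7 libraries from -9.2 to 11.4. All 12 markers of prostate luminal epithelium were expressed, with sums of 1140 to 1180 rescaled RPKM in the LKO and 984 to 1010 in the shCXCR7 libraries. Among 10 fibroblast markers, 9 stayed under 0.5 in every library and COL1A2, COL3A1, PDGFRA, FAP and POSTN were at 0 in all 6. That list summed to between 9.32 and 12 in the LKO and between 8.85 and 10.3 in the shCXCR7 libraries, nearly all of it COL1A1, which did not pass (log2 fold change -0.14, adjusted p = 0.374 from limma). Of the blood markers 8 of 10 stayed under 0.5, with sums of 7.65 to 11 and 6.55 to 8.58, and the macrophage and lysosome gene CD68 fell by a little (-0.43). The hemoglobin gene HBA1, at 0.511 to 1.21 in the LKO and 0.934 to 2.31 in the shCXCR7 libraries, did not pass (0.88). The endothelial markers summed to at most 1.6, 7 of 8 of them were under 0.5, and ESAM did not pass (-0.33, adjusted p = 0.361 from limma).

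Silencing CXCR7 moved 2790 genes up, 20.9% of those tested, and 2838 down, 21.3%, at an adjusted p under 0.05. The changes were mostly small. The median size among these 5628 genes was 0.54 on the log2 scale, 55.1% of them changed by less than 1.5-fold, and the median change of all genes tested was -0.002. With a limit of 2-fold added and the adjusted p held under 0.001, 212 rises (1.59%) and 341 falls (2.56%) were left. The groups did not overlap for 54.4% of all genes tested, which is the background for each statement below that the libraries of one group lay above those of the other. Beyond 4-fold, 54 genes rose and 54 fell, but beyond 8-fold there were 12 rises against 3 falls. These counts are over all genes tested, and the 3 falls did not meet the conditions for the largest falls named below. At an adjusted p under 0.05 the counts were 1826 and 2130 without shCXCR7 replicate 1. At the stricter limit 118 and 154 were left without LKO replicate 2. Dropping shCXCR7 replicate 1 gave 100 and 202, dropping replicate 2 gave 134 and 269, and dropping replicate 3 gave 105 and 204. Of the 247 genes named by rule and tested, 25 lost the adjusted p under 0.05 when 1 of the 6 libraries was left out, and their adjusted p from limma was then 0.0502 to 0.167. They included CDKN1C, E2F4, IMPDH2, ESCO1, CETN3, KRT80, LAMA3, MKL1, TNNC1, COL6A2, SAV1, PHLDA1, B2M, ATF3, GCLC, TFEB, SDHD, ATP5G1, PCAT6, CD68, EEF2, RPL27, RPLP1 and RPS6. The library left out was LKO replicate 2 or shCXCR7 replicate 1 for 20 of them each, shCXCR7 replicate 2 for 18, shCXCR7 replicate 3 for 11, LKO replicate 3 for 8 and LKO replicate 1 for 6. These are bulk RNA levels, so fewer cells in a phase or state and less RNA per cell cannot be told apart.

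**Figure D2:**
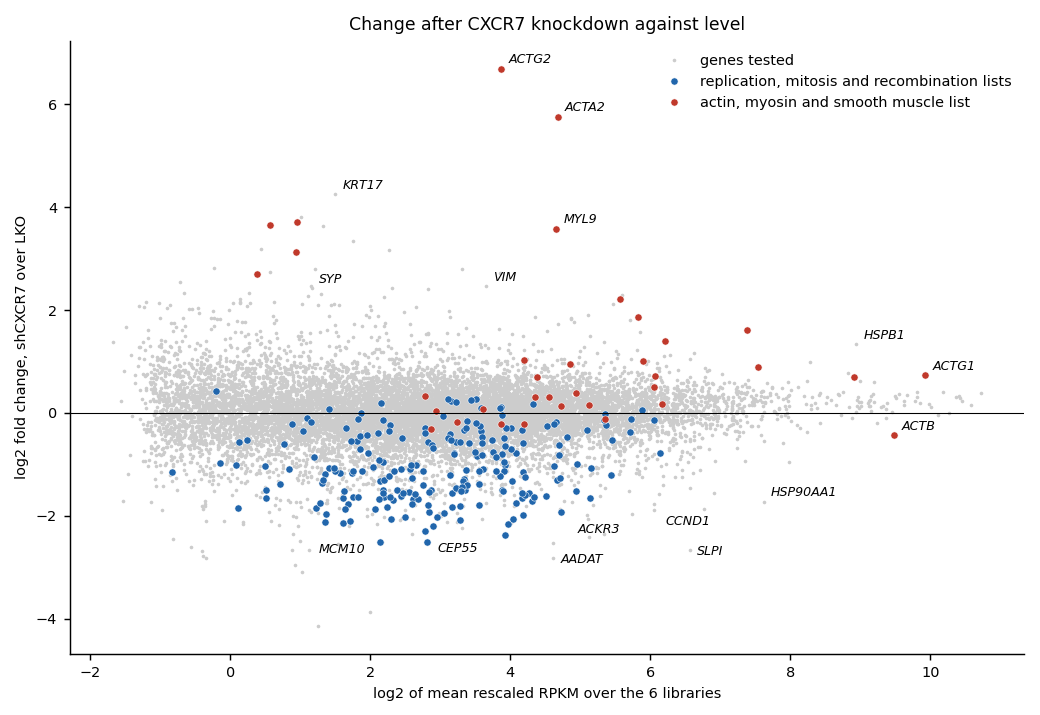
Log2 fold change, shCXCR7 over LKO (y axis), against the log2 of the mean rescaled RPKM over the 6 libraries (x axis) for 13342 genes (grey). Blue points are the members of 6 lists of replication, mitosis and recombination genes, which lie mostly below 0 at low to middle levels, and red points are the actin, myosin and smooth muscle list, led by ACTG2 at 6.70 and ACTA2 at 5.76.

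Genes of cell division fell as a broad block. Over the 6 lists of DNA replication, mitotic kinases, kinetochore, spindle, chromosome structure and homologous recombination, 167 of 212 genes tested fell, 44 did not pass and 1 rose, and their median was -1.09 on the log2 scale. For comparison with the counts of every list, 20.9% of all genes tested rose and 21.3% fell. The summed level of the 212 genes was 2600, 3190 and 3760 rescaled RPKM in the LKO and 1730, 1850 and 1630 in the shCXCR7 libraries. The groups did not overlap, and the LKO libraries spread more widely than the shCXCR7 libraries. The study used these same libraries, along with those of LNCaP-EnzR cells, when it turned to mitotic genes, so the direction of these lists is not independent evidence. It reported lower G2/M checkpoint genes after knockdown in both lines.

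Aurora kinase A, which matures the centrosome and assembles the bipolar spindle, stood at 11.2, 12.9 and 19.5 in the LKO and 5.68, 6.41 and 4.91 in the shCXCR7 libraries (log2 fold change -1.29, standard error 0.20, adjusted p = 0.0016 from limma). Its activator TPX2, a microtubule-binding protein of the spindle, was at 26.7, 33.8 and 43.3 in the LKO and 10.8, 12.2 and 10.0 in the shCXCR7 libraries (log2 fold change -1.61, standard error 0.16, adjusted p = 0.000252 from limma). PLK1, the polo-like kinase that Aurora A switches on before mitosis, was at 27.5 ± 6.99 against 8.49 ± 1.31 (SD, n = 3 each) (log2 fold change -1.65, standard error 0.19, adjusted p = 0.000463 from limma). TACC3, a spindle protein that Aurora A phosphorylates, was at 26.2, 28.2 and 38.2 in the LKO and 9.81, 11.2 and 8.20 in the shCXCR7 libraries (log2 fold change -1.63, standard error 0.16, adjusted p = 0.000205 from limma). For all 4 genes every shCXCR7 library lay below every LKO library. In the whole Aurora A network list, 9 of 18 genes tested fell, 1 rose and 8 did not pass, with a median of -0.28. Only 5 fell without shCXCR7 replicate 1 or replicate 2. The riser was NEDD9, a scaffold that activates Aurora A (0.72, adjusted p = 0.00291 from limma).

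Mitotic kinases, cyclins and the anaphase-promoting complex showed the same direction, with 29 of 35 genes lower, none higher by limma (1 before adjustment at p under 0.05, none with voom, which is limma's fit of the recovered reads) and a median of -1.13. AURKB, the kinase of the chromosomal passenger complex, was at 20.7, 22 and 34.1 in the LKO and 5.66, 7.46 and 3.72 in the shCXCR7 libraries (log2 fold change -2.16, standard error 0.26, adjusted p = 0.000565 from limma). PKMYT1, which holds CDK1 inactive until mitosis, had a log2 fold change of -1.92, the centrosome-separating kinase NEK2 of -1.82 and cyclin A2 (CCNA2) of -1.77. CDK1 itself, the kinase that drives entry into mitosis, was at 36.0 to 61.3 in the LKO and 20.2 to 25.5 in the shCXCR7 libraries (log2 fold change -1.08, standard error 0.18, adjusted p = 0.00244 from limma). MKI67, which coats mitotic chromosomes and is the usual proliferation marker, was at 10.4, 12.8 and 14.6 in the LKO and 2.78, 3.05 and 2.85 in the shCXCR7 libraries (log2 fold change -2.02, standard error 0.13, adjusted p = 3.34e-05 from limma).

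The spindle, kinesin and cytokinesis list had the lowest median of all lists, -1.49, with 27 of 30 genes lower, 16 of them past 2-fold and 0.001, and none higher by limma (0 before adjustment at p under 0.05, 0 with voom). Between 26 and 29 of its members fell under every other setting tried. CEP55, which recruits the machinery of abscission to the midbody, was at 9.04, 12.6 and 14.7 in the LKO and 1.76, 1.97 and 1.94 in the shCXCR7 libraries (log2 fold change -2.5, standard error 0.17, adjusted p = 3.94e-05 from limma). PRC1, the crosslinker of the central spindle, was at 19.3, 26.4 and 31.5 in the LKO and 3.65, 5.56 and 4.91 in the shCXCR7 libraries (log2 fold change -2.38, standard error 0.20, adjusted p = 0.000101 from limma). GTSE1, a microtubule-tracking protein of G2 and mitosis, had a log2 fold change of -2.19 and ASPM, a spindle pole protein, of -2.13. The microtubule destabilizer STMN1 (-0.26), NUMA1 (0.05) and the kinesin KIF18A (-0.61) did not pass. Of the 41 centromere and kinetochore genes, 32 fell and limma called no rise (0 before adjustment at p under 0.05, 0 with voom), with a median of -1.15. Among them were the kinetochore proteins CENPF (-2.09), CASC5 (-1.87) and NUF2 (-1.83) and the survivin gene BIRC5 (-2.06).

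Many of these genes carried the same letters before their start. The cell cycle genes homology region, TTTGAA, and the CCAAT box are the elements through which the DREAM and MuvB complexes and NF-Y are known to act on G2 and mitosis genes. Both were searched on both strands in RefSeq promoters of GRCh38.p14, from 250 bases before to 50 after each start, counting a gene once if any of its starts held the letters. TTTGAA was in 20 of the 25 matched spindle genes that fell (80%), in 14 of 26 kinetochore genes (53.8%), in 12 of 23 mitotic kinase and cyclin genes (52.2%) and in 1 of 34 DNA replication genes (2.94%). It was in 18.2% of all 27305 genes of the promoter table, in 13% of 10094 tested genes that matched it and in 14.8% of 2182 matched genes that fell. CCAAT was in 76.0% of the spindle genes and 58.8% of the DNA replication genes that fell, against 43.5% of tested genes. These shares describe letters only, and no binding was measured. The spindle, kinetochore and mitotic kinase lists were drawn from genes of G2 and mitosis, and their members that did not fall were not counted. KIF18A, which did not pass, held TTTGAA too. The stretches below are shown because they belong to the falling genes named above, read in the direction of the gene and ending at or before the base before the start, with TTTGAA or its reverse complement in capitals. They lie at chr16:23678830-23678888 on the + strand (PLK1), chr15:90994536-90994585 on the - strand (PRC1), chr22:46296814-46296869 on the + strand (GTSE1), chr10:93496466-93496531 on the + strand (CEP55) and chr10:128126424-128126500 on the - strand (MKI67).
PLK1: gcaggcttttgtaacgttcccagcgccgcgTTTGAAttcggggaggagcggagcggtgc
PRC1: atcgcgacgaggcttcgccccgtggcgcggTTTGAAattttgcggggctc
GTSE1: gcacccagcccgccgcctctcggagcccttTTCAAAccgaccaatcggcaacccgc
CEP55: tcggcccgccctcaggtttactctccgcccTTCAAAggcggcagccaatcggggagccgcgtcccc
MKI67: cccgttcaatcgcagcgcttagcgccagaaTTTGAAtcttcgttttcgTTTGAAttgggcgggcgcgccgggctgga

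DNA replication genes fell with the mitotic genes. Of 51 tested, 39 fell and limma called no rise (1 before adjustment at p under 0.05, 1 with voom), with a median of -0.78. MCM10, which helps to start the replicative helicase, was at 5.69, 7.48 and 9.88 in the LKO and 1.23, 1.34 and 0.806 in the shCXCR7 libraries (log2 fold change -2.52, standard error 0.22, adjusted p = 0.000131 from limma). CDC45, a subunit of that helicase, had a log2 fold change of -2.29, the origin-licensing factor CDC6 of -1.94 and the checkpoint adaptor CLSPN of -1.96. Among genes of nucleotide synthesis 11 of 19 fell and 1 rose, with a median of -0.39. RRM2, the regulated subunit of ribonucleotide reductase, was at 10.7, 16.9 and 22.6 in the LKO and 3.20, 3.71 and 2.69 in the shCXCR7 libraries (log2 fold change -2.24, standard error 0.24, adjusted p = 0.000351 from limma). Thymidylate synthase (TYMS, -2.09), thymidine kinase (TK1, -1.0) and CAD, the first enzyme of pyrimidine synthesis (-0.99), fell as well, while IMPDH2 of purine synthesis rose slightly (0.23).

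Chromosome structure and repair genes followed. In the condensin and cohesin list 18 of 24 genes fell and 1 rose, with a median of -0.75. The condensin subunit NCAPH stood at -2.11, topoisomerase TOP2A at -1.99 and sororin (CDCA5) at -1.78 on the log2 fold change scale, and the cohesin acetyltransferase ESCO1 rose by 0.27. Homologous recombination and Fanconi anemia genes fell in 22 of 31 cases and rose in none by limma (2 before adjustment at p under 0.05, 0 with voom), with a median of -1.07. EXO1, an end-resecting nuclease, had a log2 fold change of -2.12, the recombination motor RAD54L of -2.07, BRCA1 of -1.87 and the helicase BLM of -1.85.

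In the list of E2F, RB and DREAM transcription factors, which control these genes, 12 of 19 fell and 1 rose, with a median of -0.54. E2F1, the activator of S phase genes, was at 11.5, 11.6 and 15.3 in the LKO and 6.71, 7.54 and 6.30 in the shCXCR7 libraries (log2 fold change -0.87, standard error 0.13, adjusted p = 0.00133 from limma). MYBL2, which joins MuvB to switch on mitotic genes, had a log2 fold change of -1.79, its partner FOXM1 of -1.27, E2F7 of -1.69 and E2F2 of -1.11. E2F4, the E2F of the repressive DREAM complex, was the riser (0.27, adjusted p = 0.0225 from limma).

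Before S phase, 7 of 13 genes of the G1 cyclins, kinases and inhibitors fell and 2 rose, with a median of -0.54. Cyclin D1 (CCND1), which starts RB phosphorylation, was at 104, 107 and 105 in the LKO and 28.4, 26.9 and 29.3 in the shCXCR7 libraries (log2 fold change -1.89, standard error 0.064, adjusted p = 6.61e-06 from limma), with little spread within either group. Cyclin E2 (CCNE2) had a log2 fold change of -1.62 and CDK2 of -1.46. The CDK inhibitor p21 (CDKN1A) was lower, not higher, at 149, 131 and 107 in the LKO and 78.6, 74.2 and 90.7 in the shCXCR7 libraries (log2 fold change -0.66, standard error 0.13, adjusted p = 0.00477 from limma). The inhibitors CDKN2B (1.48) and CDKN1C (0.59) rose from low levels.

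Other targets of p53 moved mostly down with CDKN1A. Of 27 tested, 14 fell and 3 rose, with a median of -0.33. TP53INP1, a stress-induced autophagy and death factor, was at 58.3, 58.6 and 46.4 in the LKO and 12.4, 13.2 and 15.3 in the shCXCR7 libraries (log2 fold change -1.98, standard error 0.12, adjusted p = 2.8e-05 from limma). PLK3 (-1.35), the cytokine GDF15 (-1.25) and the death effector BAX (-1.02) fell, and the antiproliferative BTG2 (0.78) and the death receptor FAS (0.73) rose. In the BCL2 and apoptosis list 9 of 21 genes rose and 3 fell, with a median of 0.25, and 5 rose without shCXCR7 replicate 1 or replicate 2. The risers included the initiator caspase CASP8 (1.18), BAK1 (0.65), PMAIP1 (0.63) and BIK (0.53), and BID (-0.83) fell. Only 4 of 25 genes of senescence-associated secretion were expressed enough to test. There the inhibitor TIMP2 rose (0.40) and IGFBP5, which binds insulin-like growth factors, fell and was at 3.27 ± 0.670 against 0.439 ± 0.114 (SD, n = 3 each) (log2 fold change -2.35, standard error 0.20, adjusted p = 0.000113 from limma).

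Replication-dependent histone genes went the other way from the replication machinery. Of 73 in the list 42 were tested, 21 rose and 5 fell, with a median of 0.54, and 13 rose without shCXCR7 replicate 1 while 3 fell without shCXCR7 replicate 3. HIST1H4I was at 0.221, 0.558 and 0.429 in the LKO and 6.99, 4.72 and 7.21 in the shCXCR7 libraries (log2 fold change 3.34, standard error 0.24, adjusted p = 5.22e-05 from limma). HIST1H2AG (2.72), HIST1H2AE (2.43) and HIST1H2BF (2.07) also rose, and HIST2H2AC (-1.14) and HIST1H4C (-1.01) fell. The mRNAs of these genes normally end in a stem-loop without a poly(A) tail. Near-identical copies share their reads, so the value of a single histone gene is uncertain.

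**Figure D3:**
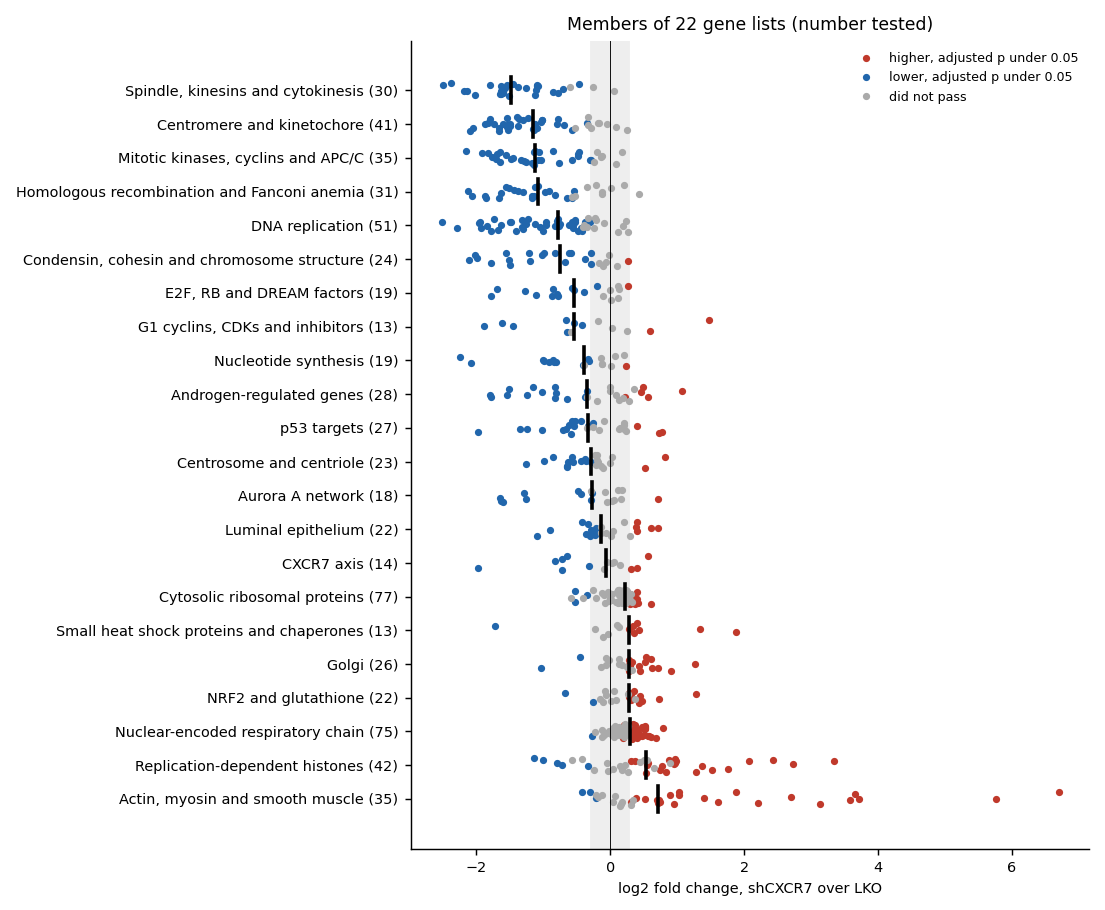
Log2 fold change, shCXCR7 over LKO (x axis), of each tested member of 22 gene lists (rows, with the number tested), red for genes that rose, blue for genes that fell and grey for genes that did not pass. Black bars are medians, from -1.49 in the spindle list to 0.71 in the actin list, and the grey band spans the quartiles of all genes tested, -0.29 to 0.28.

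Actin and myosin genes held the largest rises. Of 35 tested members of the actin, myosin and smooth muscle list 22 rose and 3 fell, with a median of 0.71, and 13 rose past 2-fold and 0.001, while under other settings between 16 and 25 rose. ACTG2, the enteric smooth muscle actin, was at 0, 0.0775 and 0 in the LKO and 30.4, 19.2 and 38.1 in the shCXCR7 libraries. It had 1 read in the 3 LKO libraries and 1401 in the 3 shCXCR7 libraries, a ratio of 1350 with a 95% exact interval for counting error of 242 to 53400 (log2 fold change 6.70, standard error 0.24, adjusted p = 6.61e-06 from limma). ACTA2, the vascular smooth muscle actin, was at 1.02, 0.390 and 0.686 in the LKO and 49.8, 36.3 and 65.5 in the shCXCR7 libraries (log2 fold change 5.76, standard error 0.28, adjusted p = 1.58e-05 from limma). In both genes the knockdown libraries lay far above the controls, and their lowest value was in the same library, shCXCR7 replicate 2. ACTA1, skeletal muscle actin, was at 0.219, 0.207 and 0.106 in the LKO and 3.52, 2.28 and 5.14 in the shCXCR7 libraries (log2 fold change 3.13, standard error 0.28, adjusted p = 0.000136 from limma).

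MYL9, the regulatory myosin light chain of smooth muscle and nonmuscle cells, was at 4.85, 3.28 and 3.05 in the LKO and 49.7, 39.0 and 51.6 in the shCXCR7 libraries (log2 fold change 3.58, standard error 0.18, adjusted p = 1.81e-05 from limma). MYL7, the atrial light chain, was at 0 in all LKO libraries and at 3.52, 2.05 and 3.35 in the shCXCR7 libraries, at least 20.6-fold higher when 3 reads over the LKO group are taken as the floor. VIL1, villin, which bundles actin in microvilli, was at 0.0298, 0.0377 and 0.0870 in the LKO and 3.48, 2.81 and 5.11 in the shCXCR7 libraries (log2 fold change 3.71, standard error 0.24, adjusted p = 3.5e-05 from limma). Among the factors that control these genes SRF rose (1.02) and its coactivator MKL1 fell slightly (-0.30, adjusted p = 0.0129 from limma). Of other smooth muscle genes, picked after their values were seen, MYH11, DES, CNN1, SYNPO2, LMOD1 and the coactivator MYOCD stayed below the filter and TAGLN (0.04) and SMTN (-0.21) did not pass. Because the actins share long stretches of sequence, reads may be split between them in a way the table does not show.

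The cytoplasmic actins, which are among the most abundant mRNAs of the cell, exchanged places. ACTG1, cytoplasmic gamma-actin, was at 681, 719 and 791 in the LKO and 1198, 1239.9 and 1216 in the shCXCR7 libraries (log2 fold change 0.74, standard error 0.080, adjusted p = 0.000325 from limma), the largest gain of RPKM of any gene under the naming rule. ACTB, cytoplasmic beta-actin, was at 757, 805 and 913 in the LKO and 625, 629 and 579 in the shCXCR7 libraries (log2 fold change -0.43, standard error 0.090, adjusted p = 0.00646 from limma). The ratio of ACTG1 to ACTB was 0.901, 0.893 and 0.866 in the LKO and 1.92, 1.97 and 2.10 in the shCXCR7 libraries. ACTB did not pass when genes were not filtered.

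**Figure D4:**
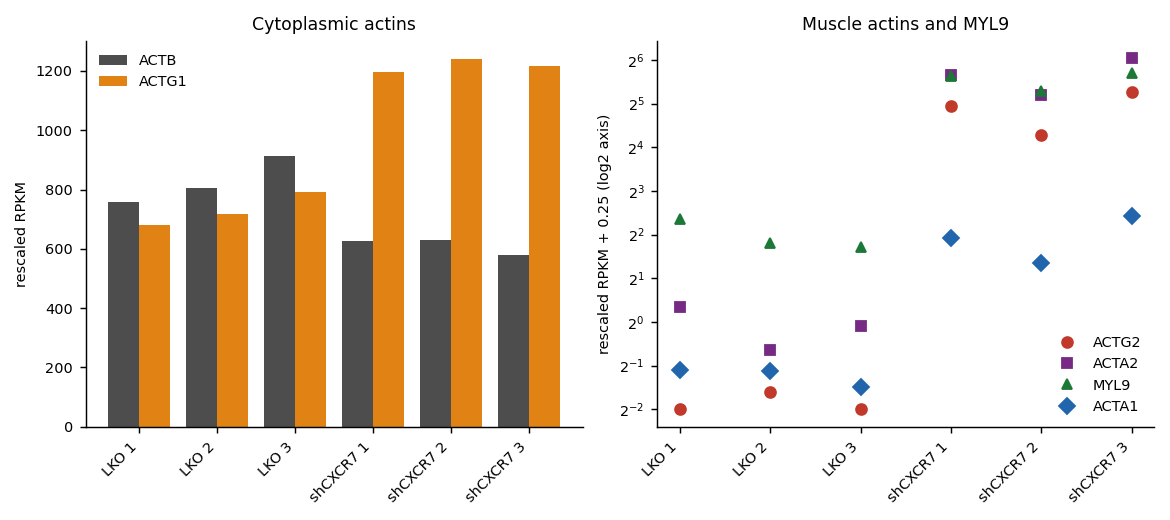
Left, bars of rescaled RPKM (y axis, from 0) of ACTB (dark) and ACTG1 (orange) in each of the 6 libraries, with ACTB above ACTG1 in the 3 LKO libraries and below it in the 3 shCXCR7 libraries. Right, rescaled RPKM + 0.25 on a log2 axis of ACTG2, ACTA2, MYL9 and ACTA1 in the same libraries, each higher in every shCXCR7 library than in any LKO library.

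The CArG box, the site that serum response factor (SRF) is known to bind in muscle and actin genes, was searched in the same promoters on both strands. It was in 10 of the 20 matched genes of the actin list that rose (50%), against 1.51% of tested genes, 2.36% of 2204 matched genes that rose and 1.6% of all genes of the promoter table. Its stretches are shown for ACTG2 (chr2:73892868-73892974 on the + strand), ACTA1 (chr1:229434152-229434221 on the - strand), MYL7 (chr7:44141354-44141423 on the - strand) and ACTG1 (chr17:81512854-81512923 on the - strand), chosen among the risers described above because they hold a box, and the boxes are in capitals. The ACTG2 stretch holds a pair of boxes. The windows of ACTA2 in the table held none, which says only that these letters are not there, and MYL9 and VIL1 were not matched. The list was itself drawn from muscle and actin genes, and its members that did not rise were not counted. SMTN, which did not pass, held a box too, so the share does not tie the box to the rise.
ACTG2: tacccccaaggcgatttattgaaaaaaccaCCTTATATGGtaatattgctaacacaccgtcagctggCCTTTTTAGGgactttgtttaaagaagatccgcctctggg
ACTA1: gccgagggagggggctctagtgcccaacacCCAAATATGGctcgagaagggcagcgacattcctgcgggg
MYL7: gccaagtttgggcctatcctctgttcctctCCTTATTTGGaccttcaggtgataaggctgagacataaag
ACTG1: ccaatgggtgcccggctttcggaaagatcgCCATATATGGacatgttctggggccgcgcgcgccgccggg

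Outside the actins, several genes that were nearly silent in control cells came on. The basal keratin KRT17 had 1 read in the LKO and 320 in the shCXCR7 libraries, a ratio of 308 (95% exact interval for counting error 55.0 to 12200). Its level was 0, 0 and 0.0504 in the LKO and 4.37, 2.5 and 10.1 in the shCXCR7 libraries, so the shCXCR7 libraries differed widely among themselves. The interferon-induced GTPase GBP2 was at 0.257, 0.125 and 0.0961 in the LKO and 4.76, 3.76 and 6.09 in the shCXCR7 libraries (log2 fold change 3.64, standard error 0.22, adjusted p = 3.27e-05 from limma). CYP7A1, the rate-limiting enzyme of bile acid synthesis, was at 0.853, 0.538 and 0.939 in the LKO and 9.03, 7.93 and 9.65 in the shCXCR7 libraries (log2 fold change 3.17, standard error 0.17, adjusted p = 2.32e-05 from limma). The glutathione transferase GSTA1 (3.18) and the noncoding RNA LINC01164 (3.82, 2 reads in the LKO and 489 in the shCXCR7 libraries) also rose from near 0. TMEM145 (2.79), C2orf54 (2.79) and LDLRAD1 (2.75) complete the 15 largest rises.

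The largest falls under the naming rule were of genes with higher starting levels, which its required mean of at least 1 rescaled RPKM partly fixes. AADAT, an aminotransferase of lysine and tryptophan breakdown, was at 38.2, 46.3 and 44.5 in the LKO and 6.11, 6.64 and 4.98 in the shCXCR7 libraries (log2 fold change -2.82, standard error 0.12, adjusted p = 1.03e-05 from limma). SLPI, a secreted inhibitor of leukocyte proteases, was at 153, 157 and 179 in the LKO and 28.5, 29.2 and 20 in the shCXCR7 libraries (log2 fold change -2.66, standard error 0.14, adjusted p = 2.5e-05 from limma). SLC39A6, a zinc importer, was at 58.3, 62.1 and 55.8 in the LKO and 10.2, 11.4 and 10.7 in the shCXCR7 libraries (log2 fold change -2.42, standard error 0.076, adjusted p = 6.61e-06 from limma), with the smallest standard error of the 15 largest falls. The remaining large falls outside the cell cycle were FSD1 (-2.66), the apical transport protein MAL2 (-2.52), C14orf2 (-2.36), the RNA-binding protein RBPMS2 (-2.19) and the neuronal differentiation gene CEND1 (-2.16).

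In absolute level the losses were led by ACTB and the cytosolic chaperone HSP90AA1, which was at 250.2, 319.9 and 338 in the LKO and 94.1, 88.7 and 90.1 in the shCXCR7 libraries (log2 fold change -1.72, standard error 0.11, adjusted p = 3.67e-05 from limma). SLC25A5, the mitochondrial ADP/ATP carrier, was at 171 ± 31.6 against 46.6 ± 5.93 (SD, n = 3 each) (log2 fold change -1.86, standard error 0.15, adjusted p = 8.18e-05 from limma). APP, the amyloid precursor protein, was at 179.9 ± 28 against 60.8 ± 1.90 (SD, n = 3 each) (log2 fold change -1.55, standard error 0.11, adjusted p = 5.57e-05 from limma). The sodium pump subunit ATP1B1 (-0.94), nucleobindin NUCB2 (-0.94) and the choline phosphotransferase CHPT1 (-0.58) were the other large losses. Against them HSPB1, a small heat shock protein that binds actin and misfolded proteins, was at 266, 257 and 315 in the LKO and 754, 633 and 729.8 in the shCXCR7 libraries (log2 fold change 1.34, standard error 0.10, adjusted p = 7.87e-05 from limma). In the heat shock list 7 of 13 genes rose and 1, HSP90AA1, fell, with a median of 0.27, and HSPB8 (1.88), HSF1 (0.43) and HSPE1 (0.40) were among the risers. The other large gains of RPKM were ribosomal protein genes and the elongation factor EEF2 (0.32).

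Androgen-regulated genes fell unevenly. Of 28 tested 14 fell and 5 rose, with a median of -0.35, and 3 rose without shCXCR7 replicate 2 or replicate 3. KLK3, which encodes prostate-specific antigen, was at 112, 101 and 94.4 in the LKO and 29.2, 32.8 and 27.4 in the shCXCR7 libraries (log2 fold change -1.78, standard error 0.094, adjusted p = 2.32e-05 from limma). The protease TMPRSS2 was at 63.8, 57.7 and 47.6 in the LKO and 16.0, 15.8 and 16.2 in the shCXCR7 libraries (log2 fold change -1.79, standard error 0.11, adjusted p = 2.86e-05 from limma). The kallikreins KLK2 (-1.54) and KLK4 (-1.51) fell with them. The methyltransferase GNMT rose instead (1.07). FKBP5 (-0.35) and SLC45A3 (-0.01), which are standard androgen-induced genes, did not pass.

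Epithelial identity genes moved in both directions. In the luminal list 5 of 22 genes rose and 10 fell, with a median of -0.14, and among the 12 luminal markers 4 rose and 8 fell, with a median of -0.27. Of the luminal list 6 fell without LKO replicate 2 or shCXCR7 replicate 1 and 5 without shCXCR7 replicate 2, and of the markers 5 and 4. The keratin KRT8 (0.71) and the claudin CLDN4 (0.60) rose, while the splicing regulator ESRP2 (-1.09) and the transcription factors GATA2 (-0.90) and HOXB13 (-0.43) fell, along with STEAP2 (-0.36). In the basal list 5 of 9 genes rose and 2 fell, with a median of 0.60, and 3 rose without LKO replicate 2 and 2 without shCXCR7 replicate 1 or replicate 3. Beside KRT17 the risers included TRIM29 (1.75), the laminin receptor ITGA6 (0.60) and KRT80 (0.55), whereas the integrin partner of ITGA6, ITGB4 (-0.65) and the laminin LAMA3 (-0.50) fell.

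Neuroendocrine genes were largely silent in both groups. Of 32 in the list 9 were tested, 3 rose and 4 fell, with a median of -0.31, and CHGA and CHGB, which encode chromogranins, stayed at or under 0.102 and 0.0389 rescaled RPKM. SYP, the synaptic vesicle protein synaptophysin, rose from a low level, at 0.604, 0.467 and 0.522 in the LKO and 4.55, 3.55 and 3.77 in the shCXCR7 libraries (log2 fold change 2.43, standard error 0.15, adjusted p = 3.15e-05 from limma). ENO2, neuron-specific enolase, fell, at 20.7, 19.1 and 20.8 in the LKO and 12, 11.4 and 11.3 in the shCXCR7 libraries (log2 fold change -0.79, standard error 0.071, adjusted p = 0.000144 from limma). BEX1 rose (1.70), and the enzyme DDC (-0.73), the histone methyltransferase EZH2 (-0.62) and the neuronal repressor REST (-0.47) fell.

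In the list of the receptor and the genes around it, 3 of 14 genes rose and 6 fell, with a median of -0.07. Both the 14 and the 6 include ACKR3, the silenced gene. CXCR4, the other CXCL12 receptor, stayed between 0 and 0.208 rescaled RPKM and CXCL12 between 0 and 0.0450, and neither was tested. Beta-arrestin 1 (ARRB1) was at 8.83, 9.18 and 9.38 in the LKO and 4.97, 5.66 and 5.77 in the shCXCR7 libraries (log2 fold change -0.72, standard error 0.086, adjusted p = 0.00054 from limma), and beta-arrestin 2 (ARRB2), at 21.7, 20.8 and 21.2 in the LKO and 19.2, 20.3 and 20 in the shCXCR7 libraries, did not pass (-0.10, adjusted p = 0.271 from limma). The receptor kinases split, with ADRBK1 higher (0.56) and ADRBK2 lower (-0.83). The inhibitory G protein subunits split as well, with GNAI3 higher (0.39) and GNAI1 lower (-0.73).

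Lists of signalling genes had medians between -0.19 and 0.12, with larger changes in single genes. They mix pathway members with targets, so a median does not measure pathway output. Of 16 ERK output genes 3 rose (18.8%) and 7 fell (43.8%), with a median of -0.19, and 4 fell without LKO replicate 2 or shCXCR7 replicate 3. The feedback inhibitors SPRY1 (-1.28), SPRED1 (-0.91) and DUSP5 (-0.80) and the early response gene PHLDA1 (-0.57) fell, while the AP-1 subunits JUND, at 19.6, 16.5 and 18.9 in the LKO and 53.7, 52.3 and 50.8 in the shCXCR7 libraries (log2 fold change 1.5, standard error 0.082, adjusted p = 2.5e-05 from limma), and JUN (1.23) rose. In the TGF-beta and BMP list 6 of 24 rose and 2 fell, with a median of 0.12. The BMP-induced inhibitors of differentiation ID2 (1.37) and ID3 (0.92), the latent TGF-beta binding protein LTBP1 (0.59) and SMAD1 (0.51) rose, and the pseudoreceptor BAMBI (-1.16) and SMAD3 (-0.45) fell. In the YAP and TAZ list 3 of 19 rose and 2 fell, with a median of 0.03: YAP1 itself (-1.12) and SAV1 (-0.27) were lower, and MOB1A (0.70), NF2 (0.66) and the target CYR61 (0.58) higher.

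Of 16 mesenchymal genes tested 4 rose (25%) and 3 fell (18.8%), shares near those of all genes, with a median of 0.10. VIM, the intermediate filament vimentin, was at 3.52, 3.96 and 3.53 in the LKO and 22.7, 20.7 and 20.9 in the shCXCR7 libraries (log2 fold change 2.47, standard error 0.083, adjusted p = 6.61e-06 from limma). ITGA5 (0.76) and COL6A2 (0.29) rose as well, but fibronectin (FN1, -0.81) and the activin subunit INHBA (-1.50) fell. Among 9 striated muscle genes 4 rose and 3 fell, with a median of 0.01. Myoglobin (MB, 0.58) and the troponin TNNC1 (1.54) were higher, and the calcium pumps ATP2A2 (-0.97) and ATP2A1 (-0.89) and the troponin TNNT1 (-0.94) lower.

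Interferon-response genes went both ways. Of 26 tested 9 rose and 6 fell, with a median of 0.29, and only 2 rose without shCXCR7 replicate 1 or replicate 2 and 3 without replicate 3. GBP2, described above, and the tethering protein BST2 (0.56) rose. All 3 membrane proteins that block virus entry fell, IFITM2 by 1.80, IFITM1 by 1.22 and IFITM3 by 0.73 on the log2 scale, and IFI6 fell by 0.47. In the MHC class I list 3 of 15 rose (20%) and 4 fell (26.7%), near the shares of all genes, with a median of -0.06, where the falls included PSMB10 (-0.80), CANX (-0.49) and B2M (-0.24) and the transactivator NLRC5 (1.23) and the peptide editor TAPBP (0.90) rose.

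Genes of the centrosome and of the Golgi moved in opposite directions. In the centrosome list 12 of 23 genes fell and 2 rose, with a median of -0.29. The centriole duplication factors STIL (-1.26) and PLK4 (-0.99) and the centriolar proteins POC1A (-0.85) and NIN (-0.65) fell, and the centrins CETN2 (0.81) and CETN3 (0.52) rose. In the Golgi list 14 of 26 rose and 2 fell, with a median of 0.28. The vesicle GTPase ARF4 was at 42, 55.4 and 58.7 in the LKO and 99.7, 98.3 and 92.6 in the shCXCR7 libraries (log2 fold change 0.91, standard error 0.12, adjusted p = 0.000902 from limma). The mannosidase MAN1A1 (1.26), GOLPH3 (0.71) and the tether USO1 (0.62) rose, and the galactosyltransferase B4GALT1 (-1.03) and the golgin GCC2 (-0.45) fell.

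Several metabolic lists had shares near those of all genes. Cholesterol and fatty acid synthesis had 8 of 32 genes higher and 8 lower (25% each), with a median of -0.05. The master regulator SREBF2 (-1.22), FADS1 (-1.03) and ACACA (-0.43) fell, and mevalonate kinase (MVK, 0.86) and ACSS2 (0.70) rose. Glycolysis and hypoxia genes rose in 8 and fell in 8 of 29 cases (27.6% each), with a median of 0.07, and 5 fell without shCXCR7 replicate 1 or replicate 3. Hexokinase HK2 (-0.89), PFKP (-0.67), the glucose transporter SLC2A1 (-0.46) and BNIP3L (-1.06) fell, and EPAS1 (0.91) and BNIP3 (0.54) rose. In the amino acid and ER stress list 5 of 27 rose (18.5%) and 7 fell (25.9%), with a median of -0.09: the leucine transporter SLC7A5 (-0.93), SDF2L1 (-0.86), DDIT4 (-0.81) and HYOU1 (-0.55) were lower and ATF3 (0.55) and PSPH (0.48) higher.

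In the list of arginine, polyamine and amino acid breakdown 3 of 20 rose (15%) and 5 fell (25%), with a median of 0.02. Beside AADAT, the mitochondrial arginase ARG2 was at 12.2, 13.9 and 12.8 in the LKO and 2.90, 3.18 and 2.99 in the shCXCR7 libraries (log2 fold change -2.01, standard error 0.086, adjusted p = 1.03e-05 from limma). The glutaminase GLS2 (-0.94) and the polyamine oxidase PAOX (-0.43) fell, and glutamate dehydrogenase GLUD1 (0.67) and ASS1 (0.35) rose. Steroid and bile acid genes rose in 7 of 14 cases and fell in 1, with a median of 0.39. After CYP7A1, HSD17B10, a mitochondrial hydroxysteroid dehydrogenase, was at 23.5, 21.9 and 24.1 in the LKO and 82.5, 83.6 and 78.1 in the shCXCR7 libraries (log2 fold change 1.80, standard error 0.069, adjusted p = 6.62e-06 from limma), and SRD5A1, a 5-alpha reductase (0.93), and HSD17B11 (0.52) rose too. NRF2 and glutathione genes rose in 11 of 22 cases and fell in 2, with a median of 0.28, but 5 rose without shCXCR7 replicate 1 or replicate 2 and 6 without LKO replicate 2. Heme oxygenase HMOX1 (1.28), ME1 (0.73) and TKT (0.47) were higher, and the thioredoxin reductase TXNRD1 (-0.68) and GCLC (-0.26) lower.

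Lysosome and autophagy genes rose in 9 (28.1%) and fell in 7 (21.9%) of 32 cases, near the shares of all genes, with a median of 0.04, and 5 rose without shCXCR7 replicate 2. The regulator TFEB (0.68), MAP1LC3B (0.64), TPP1 (0.58) and NPC2 (0.58) rose, and GLA (-0.85) and the calcium channel MCOLN1 (-0.73) fell. Nuclear genes of the respiratory chain moved up by small amounts, with 42 of 75 higher and 1 lower and a median of 0.30. The complex I subunits NDUFB5 (0.79) and NDUFA5 (0.69), SDHD (0.61) and ATP5O (0.58) were the largest rises, and ATP5G1 (-0.28) fell. Without shCXCR7 replicate 1 or replicate 2, 22 rose, and without LKO replicate 2, 26. Of 77 cytosolic ribosomal protein genes 25 rose and 3 fell, with a median of 0.21, a count that ran from 2 without LKO replicate 2 to 44 without LKO replicate 3. It was 3 without shCXCR7 replicate 1 or replicate 2, 14 without LKO replicate 1 and 15 with quantile normalization. RPLP0 (0.61), RPLP1 (0.41), RPS21 (0.40) and RPS6 (0.40) were the largest rises among them, and RPS23 (-0.53) and RPS27A (-0.52) fell.

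Of 22 long noncoding RNAs 3 rose (13.6%) and 7 fell (31.8%), with a median of -0.04. SNHG6, a host of small nucleolar RNAs, was at 53, 60.6 and 63.1 in the LKO and 18.2, 19.1 and 19.6 in the shCXCR7 libraries (log2 fold change -1.62, standard error 0.083, adjusted p = 2.07e-05 from limma). SNHG1 (-0.72), SNHG12 (-0.81) and the prostate cancer transcript PCAT6 (-1.06) fell, and SNHG5 (0.40) and ZFAS1 (0.37) rose. Short RNA genes, which are set aside in the ranking because they can lie inside longer genes, numbered 454 tested, with 11 higher and 90 lower.

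The response was then compared with that of LNCaP-EnzR cells in 1 fit of the 12 libraries with an interaction term, over 14211 genes. The change in C4-2B-EnzR lay above that in LNCaP-EnzR for 826 genes (5.81%) and below it for 697 (4.90%) at an adjusted p under 0.05. The LNCaP-EnzR shCXCR7 replicate 3 library stood apart, with 27.4% of its reads in genes against 67.0% to 75.5% in the other 11 libraries, and without it the counts were 837 and 815. Leaving out others gave 406 to 912 above and 410 to 766 below, the fewest above without LNCaP-EnzR LKO replicate 3 and the fewest below without C4-2B-EnzR shCXCR7 replicate 1. On the RPKM as deposited only 20 and 33 genes passed. ACKR3 itself fell further in C4-2B-EnzR cells, with log2 fold changes of -1.96 in C4-2B-EnzR and -1.27 in LNCaP-EnzR cells (difference -0.69, adjusted p = 0.0183 from limma). The line, the enzalutamide dose, the depth of knockdown and the P number in the sample titles cannot be told apart in these differences. That number differed between the lines as well.

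The lines differed in their cell division genes. In the spindle list 25 of 30 genes fell further in C4-2B-EnzR, with medians of -1.46 there and -0.19 in LNCaP-EnzR cells, and 22 did so without the library that stood apart. For DNA replication it was 32 of 51 (medians -0.76 and -0.04), for kinetochore genes 23 of 41 (-1.12 and -0.08), for mitotic kinases and cyclins 20 of 35 (-1.11 and -0.19), for homologous recombination 16 of 31 (-1.05 and -0.08) and for chromosome structure 15 of 24 (-0.73 and -0.03). No gene of these 6 lists lay in the other direction by limma, whether adjusted or not, or with voom. MKI67 had changes of -2.0 in C4-2B-EnzR and -0.04 in LNCaP-EnzR cells (difference -1.96, adjusted p = 0.00034 from limma). Among cell cycle genes in the largest falls or of the study, CCND1 (-1.65), PRC1 (-0.98), CEP55 (-0.63) and GTSE1 (-0.59) fell in LNCaP-EnzR cells. So did CDK1 (-0.54), PLK1 (-0.50), AURKA (-0.50) and TACC3 (-0.48). Like MKI67, the genes MCM10, CDC45, RRM2, AURKB and E2F1 did not pass there. For MKI67 and each gene named after it here, every LNCaP-EnzR LKO library lay below every C4-2B-EnzR LKO library. With the 12 libraries rescaled together, MKI67 was at 2.197, 1.96 and 2.046 in the LNCaP-EnzR LKO libraries. It was at 9.431, 11.64 and 13.17 in the C4-2B-EnzR LKO and 2.549, 2.784 and 2.617 in the C4-2B-EnzR shCXCR7 libraries. Whether the lower control levels account for the smaller falls was not tested. AURKB fell further in C4-2B-EnzR cells by a difference of -1.76, TACC3 by -1.14 and PLK1 by -1.13, while the difference for AURKA, -0.77, missed the threshold (adjusted p = 0.0522 from limma). In the Aurora A network list 7 of 19 genes lay below and 1 above, and in the centrosome list 7 of 23 below and 1 above.

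**Figure D5:**
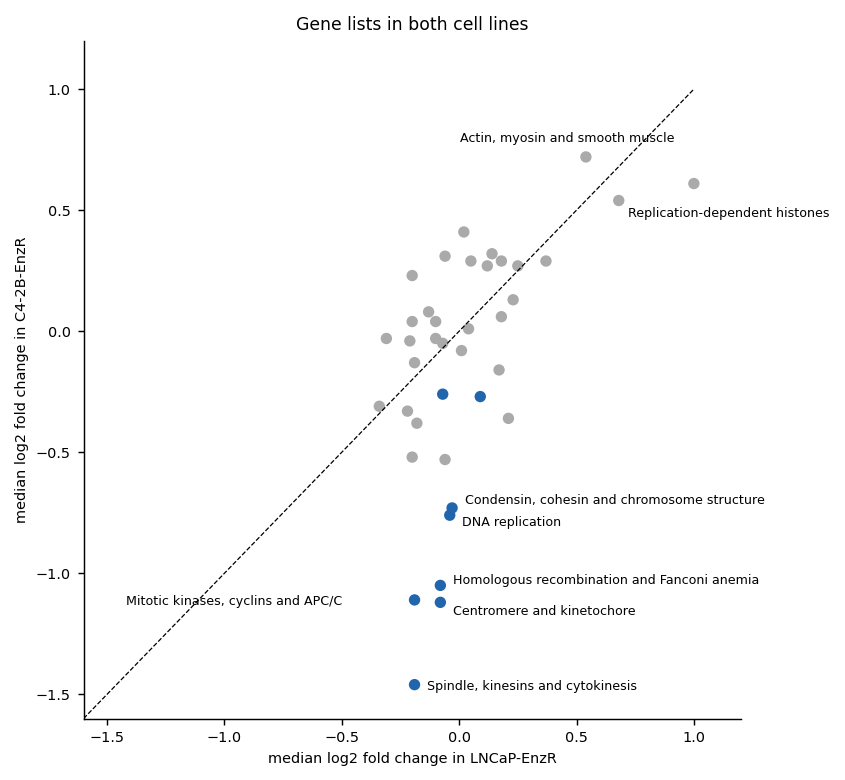
Median log2 fold change of 39 gene lists with at least 9 tested members in LNCaP-EnzR (x axis) and C4-2B-EnzR cells (y axis), with the line of equal change dashed. Blue marks the 8 lists in which at least 30% of members fell further in C4-2B-EnzR cells at an adjusted p under 0.05, led by the spindle list at -1.46 against -0.19.

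For KLK3, CDK1 and E2F1 the difference between the lines did not pass. KLK3 changed by -1.76 in C4-2B-EnzR and -1.82 in LNCaP-EnzR cells (difference 0.06, adjusted p = 0.825 from limma). The difference was -0.53 for CDK1 (adjusted p = 0.171 from limma) and -0.55 for E2F1, nearer the threshold (adjusted p = 0.0716 from limma). The difference for CCND1 did not pass (-0.23, adjusted p = 0.156 from limma), but did without the library that stood apart (-0.27, adjusted p = 0.0416 from limma). Of the androgen-regulated genes 2 of 28 lay below and 6 above, and of the 22 luminal genes none differed by limma (1 below and 4 above before adjustment at p under 0.05, 2 above with voom), though 2 lay below and 2 above without the library that stood apart. In the actin list 10 of 35 rose further in C4-2B-EnzR and 3 less, with ACTG2 at 6.58 in C4-2B-EnzR and 3.71 in LNCaP-EnzR cells (difference 2.87, adjusted p = 0.000469 from limma).

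Some single genes differed widely between the lines. PGM5, a phosphoglucomutase-like protein of cell adhesions, changed by 1.09 in C4-2B-EnzR and -1.84 in LNCaP-EnzR cells (difference 2.94, adjusted p = 1.08e-05 from limma). SLPI changed by -2.64 in C4-2B-EnzR and 0.11 in LNCaP-EnzR cells (difference -2.76, adjusted p = 0.00165 from limma). With the 12 libraries rescaled together, SLPI was at 1.04 to 1.82 in the LNCaP-EnzR LKO and 139 to 162 in the C4-2B-EnzR LKO libraries. PGM5 was at 12.3 to 13.3 in the LNCaP-EnzR LKO and 0.334 to 0.558 in the C4-2B-EnzR LKO libraries. The part of these control levels in the differences was not tested. The aldo-keto reductase AKR1C3, which makes androgens, changed by 0.17 in C4-2B-EnzR and 2.86 in LNCaP-EnzR cells (difference -2.69), and in C4-2B-EnzR cells it stayed under the filter. Both KRT6C (0.12 in C4-2B-EnzR and 2.68 in LNCaP-EnzR cells) and HEPACAM (-0.04 in C4-2B-EnzR and -2.68 in LNCaP-EnzR cells) were also under the filter in C4-2B-EnzR cells.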

How the data were processed

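RNA-Seq was done on 12 libraries in 4 groups of 3, and the 6 from C4-2B-EnzR cells were analysed here. Per the submitters' notes the authors used STAR and hg38, and what they deposited is a single table with the RPKM of each gene. The sources used here do not give the annotation or the strand setting of the counting. The authors' own tests used DESeq2. Since RPKM is scaled to a library's total, reads outside genes lower all its values. Of 26475 lines, 32 held no value and 4 repeated a symbol, and 26439 genes were kept. Low values were whole multiples of 1 read within 0.02 reads for 25028 of 25028 genes above 0, which gave the reads per library. Libraries of a group differed by more than counting error (chi-square per degree of freedom 1.63 to 13.02), so none was counted as a copy. Intervals and floors of reads cover counting error only.

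Columns were rescaled by median-of-ratios factors, genes with at least 0.5 RPKM in 3 of the 6 libraries were kept, and limma 3.58.1 in R 4.3.3 was fitted to log2(rescaled RPKM + 0.25), with Benjamini-Hochberg adjustment over all genes tested. The line difference was an interaction term over the 12 libraries, rescaled together. The 44 gene lists, the members and the tests were chosen with earlier results of these data known, and lists are given by counts and medians without a test. Members of different lists overlap. Named genes were the 15 largest rises and falls (adjusted p under 0.05, mean of at least 1 rescaled RPKM, no overlap, no short RNA genes), the 8 largest gains and losses of RPKM, 19 genes of the study, up to 4 members per list in the main direction and 2 in the other, and the 6 largest line differences in each direction. Some genes picked by this rule are not reported here. Members named as not passing or under the filter, and SRF, were chosen after their values were seen. Alternatives were the deposited scale, quantile normalization, pseudocounts of 0.05 and 1, no filter, a mean of at least 1 RPKM, a replicate block, 1 fit of 12 libraries, voom on the recovered reads and leaving out each library. The steps were tested on simulated data. Promoters came from RefSeq (GRCh38.p14) and coordinates from GENCODE 44. The rest was computed in Python 3.11.15, using matplotlib 3.10.9 for figures, numba 0.67.0 for read recovery, and scipy 1.17.1, pandas 2.3.3 and numpy 2.4.6.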

Additional observations from a re-analysis of the deposited data

Results flagged for a closer look

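The change after CXCR7 knockdown differed between C4-2B-EnzR and LNCaP-EnzR cells for 826 genes with a more positive and 697 with a more negative change in C4-2B-EnzR cells, by the interaction term of limma at an adjusted p under 0.05. Among the named genes the difference of log2 fold changes, C4-2B-EnzR minus LNCaP-EnzR, was 2.88 for the basal keratin KRT17, 2.87 for ACTG2, 2.79 for the glutathione transferase GSTA1, 2.00 for ACTA2, 1.91 for HIST1H4I, 1.2 for SYP and 0.52 for C14orf2. It was 2.94 for PGM5 and 2.64 for HEPACAM, which fell in LNCaP-EnzR cells.

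Genes of the cell cycle had negative differences. They were -2.02 for MCM10, -1.96 for MKI67, -1.88 for CDC45, -1.84 for CEP55, -1.76 for AURKB, -1.70 for RRM2, -1.57 for GTSE1, -1.38 for PRC1, -1.14 for TACC3 and -1.13 for PLK1. For each of these genes every LNCaP-EnzR LKO library lay below every C4-2B-EnzR LKO library, and the part of this in the differences was not tested. Outside the cell cycle the difference was -2.76 for SLPI, -2.37 for IGFBP5, -2.10 for AADAT, -1.14 for C2orf54 and -0.69 for ACKR3 itself. It was -2.69 for AKR1C3, -2.57 for KRT6C, -2.48 for CCDC85A, -2.38 for the activin antagonist FST and -2.26 for the glucose transporter SLC5A1. In the LNCaP-EnzR LKO libraries IGFBP5, CCDC85A, FST and SLC5A1 stayed at or under 0.251 rescaled RPKM. SLPI was at 1.04 to 1.82 there against 139 to 162 in the C4-2B-EnzR LKO libraries, and AADAT at 3.91 to 4.29 against 34.75 to 42.01. Control levels of GSTA1 differed the other way, at 8.554 to 9.255 in LNCaP-EnzR against 0 to 0.2276 in C4-2B-EnzR. So did those of HEPACAM, at 5.07 to 5.741 against 0 to 0.02096. The part of these control levels in the differences was not tested.

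Without LNCaP-EnzR shCXCR7 replicate 3, the library with 27.4% of its reads in genes, HIST1H4I and C14orf2 no longer passed (adjusted p = 0.0684 and 0.059 from limma). The differences shrank to -2.11 for CCDC85A, -1.82 for FST, -1.75 for IGFBP5 and -1.66 for SLC5A1, which still passed. That of KRT17 grew to 3.35.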

How the results depend on the processing

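ACKR3 kept its direction and passed under all 15 alternatives, with log2 fold changes of -1.88 to -2.04. Of 3670 values of 247 named genes under the alternatives, 3527 stayed on the same side of the threshold with the same direction, 143 no longer passed and 0 reversed, and 218 genes kept their side of the threshold throughout. At 2-fold and an adjusted p under 0.001, the 212 higher genes became 129 with the replicate number as a block and 100 to 206 when 1 library was left out. The 341 lower genes became 220 without a filter, which added genes to the adjustment, 226 with the block, and 154 to 389 when 1 library was left out. Voom called 317 and 503. At an adjusted p under 0.05, 1826 to 2793 genes were higher and 2130 to 3013 lower when 1 library was left out, and 2265 and 2431 with the block. For the line difference, the 826 genes above and 697 below became 20 and 33 as deposited, 475 and 448 with the block, and 406 to 912 and 410 to 815 when 1 library was left out. The cause of these moves was not tested. With the block 2 ribosomal protein genes rose in place of 25, 27 respiratory chain genes in place of 42 and 6 NRF2 genes in place of 11. The replicate numbers do not pair the libraries by the labels, and the deviations of same-numbered libraries from their group means correlated at 0.13, 0.08 and 0.01, so the block rests on a shared number only. Libraries of 7.11 to 9.33 M reads in genes leave genes with few reads, such as KRT17, with wide intervals.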
